A study of Mus musculus with 2 samples.

Results

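The complement genes described here are 10 genes chosen by symbol, and all 10 were among the 24346 genes of the tables: the C1q chain genes C1qa, C1qb and C1qc, the alternative pathway genes C3, Cfb and Cfp, the anaphylatoxin receptor genes C3ar1, C5ar1 and C5ar2, and the membrane regulator gene Cd55. RNA was sequenced from sorted Gr-1+ CD11b+ myeloid cells (markers that neutrophils and monocytes share) of BALB/c mice given 3% dextran sulfate sodium (DSS), a polymer that injures the colon, for 6 days. One library came from cells kept 2.5 hours with ATPgS (ATPγS), a slowly hydrolysed ATP analogue that activates nucleotide receptors, and the other from cells kept without it (control), so both came from DSS-treated mice. The label gives the ATPγS dose as 100 without a legible prefix to its molar unit, and whether cells of several mice were pooled is not given in the sources used here. Each condition has a single library, so the treatment cannot be tested and every difference below describes these 2 libraries.

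Complement is a cascade of plasma proteins that marks particles for uptake and calls in phagocytes. C1q, built from chains A, B and C, recognises targets of the classical pathway and is made mainly by macrophages and dendritic cells rather than by the liver. Properdin (Cfp), which stabilises the alternative pathway convertase, is stored in neutrophil granules, and neutrophils and other myeloid cells respond to the cleavage fragments C3a and C5a through C3ar1 and C5ar1. CD55 (Cd55) protects host cells by speeding the decay of C3 convertases.

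The values are FPKM, a level scaled to transcript length and library size, so they can be compared between genes. The depth, read from the smallest steps of the values of olfactory receptor genes, was estimated at 2846000 fragments in the ATPγS library and 2139000 in the control library. From it and from transcript lengths the fragments behind each gene were estimated, and the intervals below are 95% exact intervals from these estimates. They cover counting error only and assume that fragments are independent. Itgam, the gene of CD11b, stood at 144 FPKM with ATPγS and 112 FPKM in the control. Transcripts of other cell types were present in both libraries, among them the fibroblast gene Dcn (587 FPKM with ATPγS and 605 FPKM in the control) and the B cell gene Cd79a (85.9 FPKM with ATPγS and 133 FPKM in the control). The Gr-1 gene Ly6g was not analysed here.

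C1qb and C1qc were higher in the ATPγS library than in the control, Cd55 was lower, and the most abundant complement genes, C5ar1 and C3, differed little (ratios 1.05 and 1.14). C5ar1, C3, Cfp and C1qb led the order in both libraries, and C5ar2 was the lowest of the 10. In the ATPγS library the order after C1qb was C1qc, C3ar1, C1qa, Cfb and Cd55, while in the control it was Cd55, Cfb, C3ar1, C1qa and C1qc. Cd55 and C1qc thus held each other's place, at rank 9 and 5 with ATPγS and at rank 5 and 9 in the control. Counting intervals of neighbours overlapped for Cfp and C1qb and along the run of C1qc, C3ar1, C1qa and Cfb in both libraries. They also did for C5ar1 and C3 with ATPγS, and for C1qb and Cd55 in the control. Such overlap does not settle whether neighbours differ, and their order was not tested. Within the run, the intervals of C3ar1 (17.8 to 23.8 FPKM) and C1qc (8.51 to 17.6 FPKM) did not overlap in the control.

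**Figure D1:**
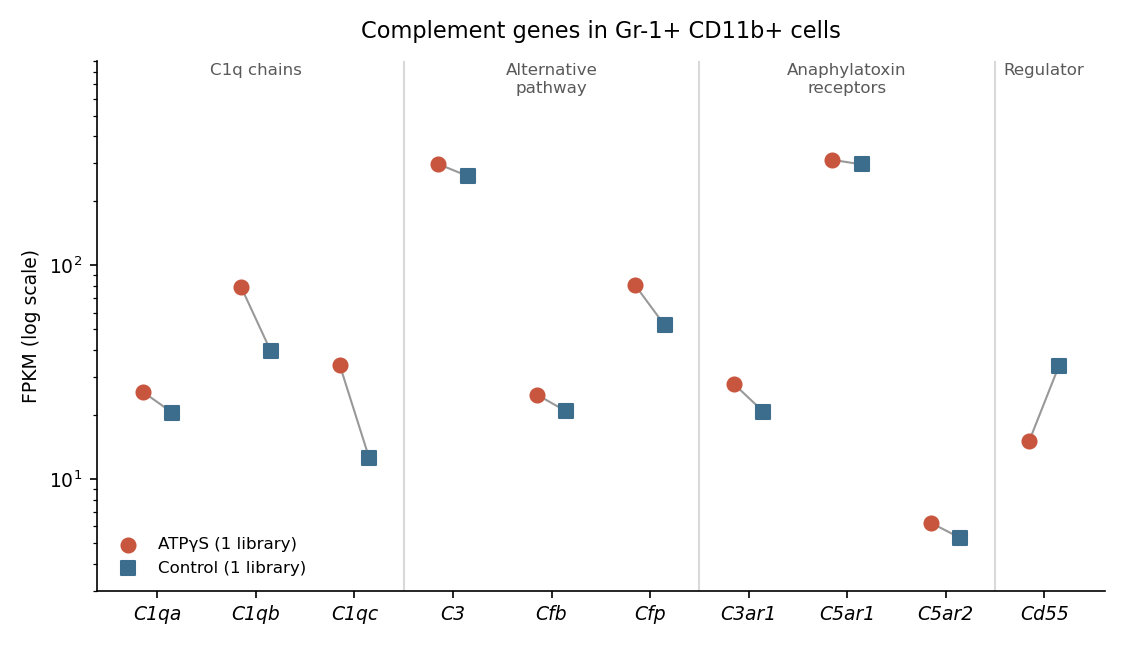
FPKM on a log axis of the 10 complement genes in the ATPγS library (circles, left of each pair) and the control library (squares), 1 library each, joined by a line per gene. C5ar1 and C3 lie highest in both libraries, the largest gaps are those of C1qc (34.2 FPKM with ATPγS and 12.5 FPKM in the control) and Cd55 (15.1 FPKM with ATPγS and 33.8 FPKM in the control), and Cd55 is the one gene that is lower with ATPγS.

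All 10 genes averaged 1 FPKM or more over the libraries. A gene was counted at a 2-fold difference on the log2(FPKM + 1) scale, which understates the differences of low genes. By this count 1 of the 10 was at least 2-fold higher with ATPγS (C1qc), 1 was at least 2-fold lower (Cd55) and 8 lay between. Of all 18311 genes at that minimum, 13.8% passed the higher and 9.91% the lower threshold, so the share of 1 in 10 in each direction is near or below the background. At the level where most of the 10 lie, a mean FPKM of 10 to 100, the background was smaller, with 4.54% of 5292 genes higher and 8.11% lower. The median log2 ratio of the 10 genes was 0.28, with 9 above 0, beside 0.01 over all genes at that minimum and -0.13 over genes averaging 10 FPKM or more. The counting interval of the ratio lay above 1 for 5 of the 10 genes and below 1 for 1 of them. Over all 17565 genes with an annotated length and a mean of at least 1 FPKM, 24.2% had it above 1 and 24.5% below. This background was not matched for level. An interval narrows with more fragments, so these shares are not directly comparable with those of the 10 genes. Differences beyond counting error were thus common over the whole transcriptome.

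**Figure D2:**
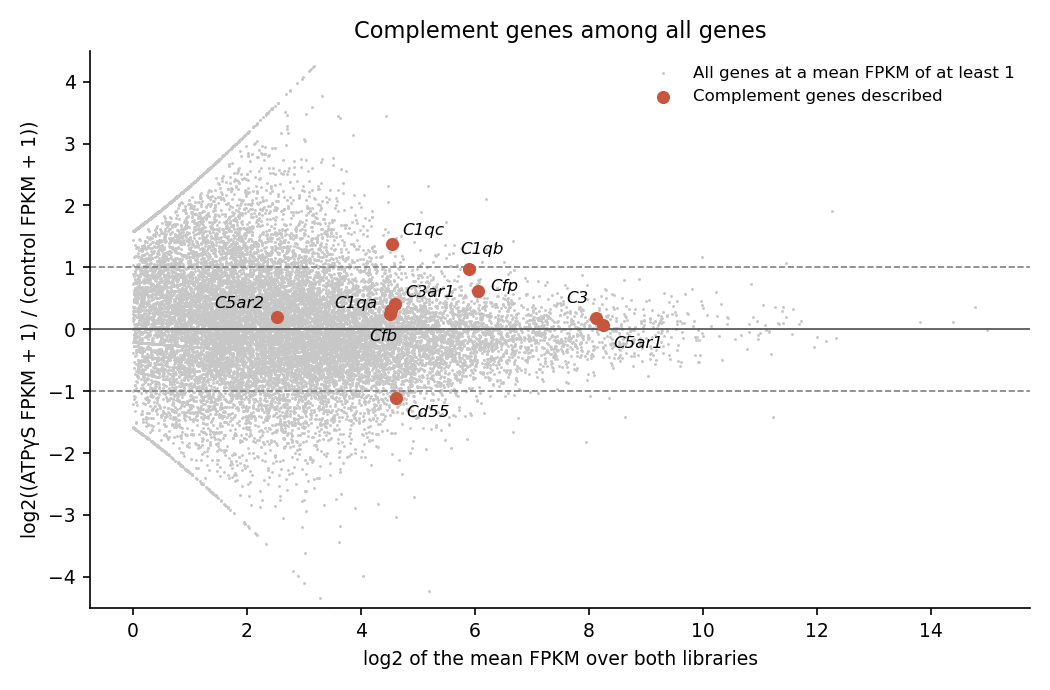
The log2 ratio of ATPγS over control against the log2 mean FPKM, with the 10 complement genes in red among all genes averaging 1 FPKM or more (grey), and dashed lines at a 2-fold difference. C1qc lies above and Cd55 below the dashed lines, C1qb just under the upper one, and 48 genes lie beyond the axis limits of 4.5.

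The C1q genes lie side by side on the minus strand of chromosome 4 (GRCm38), within 18675 bases, in the order C1qb (136880129 to 136886187), C1qc (136889804 to 136893065) and C1qa (136895917 to 136898803). C1qc, of the C chain, stood at 34.2 FPKM in the ATPγS library and 12.5 FPKM in the control, a 2.74-fold higher level (counting interval 1.85 to 4.20, about 117 fragments with ATPγS and 32 in the control). C1qb, of the B chain, stood at 78.9 FPKM with ATPγS and 39.7 FPKM in the control, a ratio of 1.99 (1.56 to 2.56, about 244 fragments with ATPγS and 92 in the control). With the pseudocount this is a log2 ratio of 0.97, just short of the 2-fold count, and it passed when both libraries were scaled to the same sum of FPKM (2 genes higher). C1qa, of the A chain, differed less, at 25.6 FPKM with ATPγS and 20.4 FPKM in the control, with a ratio of 1.25 whose interval includes 1 (0.87 to 1.88, about 76 fragments with ATPγS and 45 in the control). The interval of C1qa overlaps that of C1qb and, by a narrow margin, that of C1qc, which does not settle whether the ratios differ.

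**Figure D3:**
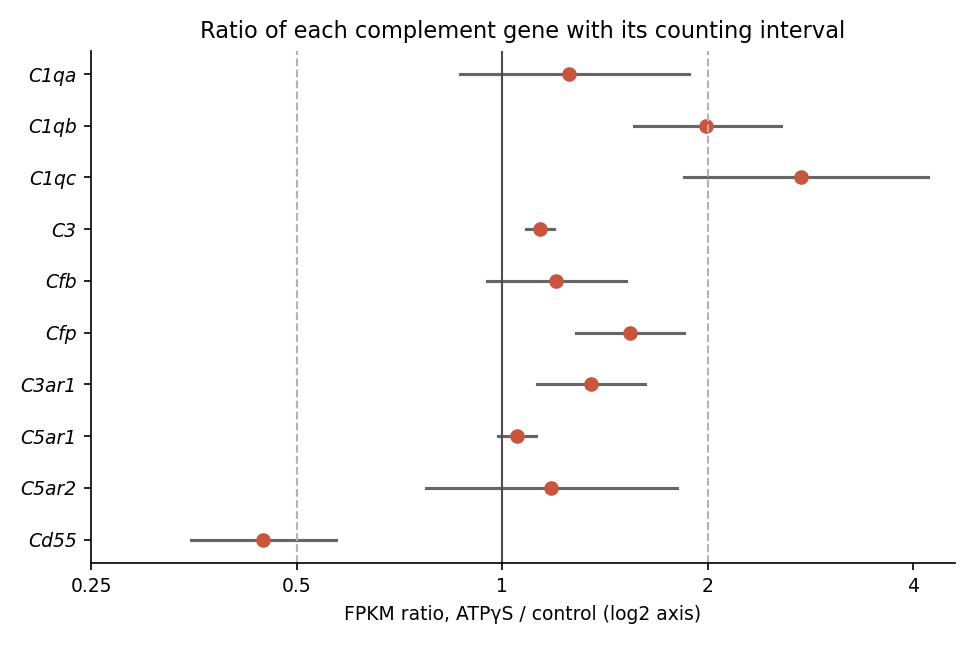
FPKM ratio of ATPγS over control for each complement gene (points) with its 95% counting interval (bars) on a log2 axis, with lines at 1 (solid) and at 2-fold differences (dashed). The bars of C1qb, C1qc, C3, Cfp and C3ar1 lie above 1, that of Cd55 lies below 1, and those of C1qa, Cfb, C5ar1 and C5ar2 include 1.

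Together the 3 chains summed to 138.7 FPKM with ATPγS and 72.6 FPKM in the control, a ratio of 1.91. B chain transcripts made up 56.9% of this sum with ATPγS and 54.7% in the control. The A chain's share was 18.5% with ATPγS and 28.1% in the control, and the C chain's was 24.6% with ATPγS and 17.2% in the control. C1qb was the most abundant chain in both libraries, although the protein holds the chains in equal number. C1qa exceeded C1qc 1.64-fold in the control, whereas with ATPγS it stood at 0.75 times C1qc. The counting intervals of the 2 levels overlapped in both libraries. Overlap of separate intervals does not settle whether the levels differ, and the 2 genes were not compared directly. In the control the intervals were 14.8 to 27.1 FPKM for C1qa and 8.51 to 17.6 FPKM for C1qc. With ATPγS they were 20.2 to 32.1 FPKM for C1qa and 28.3 to 41.0 FPKM for C1qc.

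Macrophage markers as a list did not share this difference. Of 16 markers, 8 were above 0 and 8 below on the log2 scale, with a median of 0.02, and their summed level was 3234 FPKM with ATPγS and 3231 FPKM in the control. None of the 16 was listed at 0 in either library. Hmox1, of heme oxygenase, made up most of this sum (2249 FPKM with ATPγS and 2331 FPKM in the control), and without it the sums were 984 FPKM with ATPγS and 900 FPKM in the control. Cd68, of a lysosomal membrane protein and the next most abundant, stood at 411 FPKM with ATPγS and 375 FPKM in the control. Adgre1, of the surface protein F4/80, stood at 215 FPKM with ATPγS and 149 FPKM in the control. Folr2, of a folate receptor of tissue macrophages, stood at 9.09 FPKM with ATPγS and 14.7 FPKM in the control. Past the 2-fold count in this list were 1 higher and 1 lower gene, both low. Marco was higher (3.2 FPKM with ATPγS and 1.0 FPKM in the control), and Maf was lower (1.3 FPKM with ATPγS and 4.1 FPKM in the control). Of the 8 dendritic cell markers, 4 lay above and 4 below 0, with summed levels of 233 FPKM with ATPγS and 238 FPKM in the control. By mean FPKM over both libraries, the dendritic cell list was led by Ccr7, of a homing receptor (181 FPKM with ATPγS and 167 FPKM in the control), and Cd209a, of a lectin (10.2 FPKM with ATPγS and 15.1 FPKM in the control). The 8 monocyte markers, 1 above 0 and 7 below, summed to 610 FPKM with ATPγS and 591 FPKM in the control, led by Nr4a1, of an inducible nuclear receptor (364 FPKM with ATPγS and 315 FPKM in the control) and Ms4a6c (141 FPKM with ATPγS and 146 FPKM in the control). No marker of either list was listed at 0. The part of these cells in the C1q difference was not tested, and in such bulk libraries a different number of cells of a type cannot be told apart from a different amount of RNA per cell.

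To show the regulatory sequence of the genes that differed most, the stretches just before the starts of C1qb, C1qc and Cd55 are given 5′ to 3′ (RefSeq, GRCm38.p6, minus strand). RefSeq's table held 8 of the 10 genes. Capitals mark, on either strand, AGGAAG, a core bound by ETS factors such as PU.1, and TGACG, a half-site of CREB and ATF factors. The motifs were chosen after the sequences were seen, and no marked match overlaps another. The windows are chr4:136886201-136886450 for C1qb, chr4:136893066-136893164 for C1qc, which is shorter so as to lie before every annotated start, and chr1:130462745-130462994 for Cd55.
C1qb: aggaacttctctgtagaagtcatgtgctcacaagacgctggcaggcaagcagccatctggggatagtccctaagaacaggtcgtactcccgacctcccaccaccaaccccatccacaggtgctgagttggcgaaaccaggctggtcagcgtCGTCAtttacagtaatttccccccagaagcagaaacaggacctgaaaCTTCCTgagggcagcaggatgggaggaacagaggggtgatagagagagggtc
C1qc: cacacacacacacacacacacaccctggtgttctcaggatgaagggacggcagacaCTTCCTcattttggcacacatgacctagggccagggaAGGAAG
Cd55: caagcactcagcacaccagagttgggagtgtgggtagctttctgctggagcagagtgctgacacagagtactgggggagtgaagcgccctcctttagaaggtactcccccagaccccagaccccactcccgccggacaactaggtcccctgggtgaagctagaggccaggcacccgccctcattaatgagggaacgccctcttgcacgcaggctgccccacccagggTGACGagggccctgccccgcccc
AGGAAG occurred once before C1qb, at 2 places before C1qc and not before Cd55. It was found in 29.5% of 32851 promoters over the same 250 bases and in 12.0% over the 99 bases at the far end that the C1qc window covers. TGACG occurred once before C1qb and once before Cd55, against 17.8% of promoters over 250 bases. A match of letters is a description and says nothing of a factor's binding.

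Cfp, the properdin gene (chromosome X, 20925454 to 20931555), stood at 80.4 FPKM with ATPγS and 52.2 FPKM in the control, a ratio of 1.54 (1.28 to 1.84). This was below the 2-fold count but past 1.5-fold. Cfp was 0.58 times the C1q sum with ATPγS and 0.72 times in the control. As a list, neutrophil markers differed less, with a median log2 ratio of 0.06 over 11 measured genes, 7 of them above 0 and none listed at 0. Their sum, mostly of the calprotectin subunit genes S100a8 (22410 FPKM with ATPγS and 20604 FPKM in the control) and S100a9 (14942 FPKM with ATPγS and 13776 FPKM in the control), was 42902 FPKM with ATPγS and 39869 FPKM in the control. Camp differed more than Cfp and was the 1 marker of this list at least 2-fold higher. It stood at 28.9 FPKM with ATPγS and 12.2 FPKM in the control (ratio 2.36, 1.39 to 4.07). The neutrophils' part in the Cfp difference was not tested.

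C3 (chromosome 17, 57203970 to 57228136) encodes the central component that every pathway cleaves. It stood at 297 FPKM with ATPγS and 261 FPKM in the control, a ratio of 1.14 with a narrow counting interval (1.08 to 1.19, about 4341 fragments with ATPγS and 2869 in the control). Cfb (chromosome 17, 34856374 to 34862518), of factor B, the protease of the alternative convertase, stood at 24.8 FPKM with ATPγS and 20.7 FPKM in the control, a ratio of 1.20 whose interval includes 1 (0.95 to 1.52). An annotated read-through gene, Gm20547, covers 6107 bases of Cfb on the same strand, and how the authors' counting split fragments between them is not given in the sources used here. C3 exceeded Cfb 11.97-fold with ATPγS and 12.6-fold in the control. C3 is also made by fibroblasts and epithelial cells, and the 11 fibroblast, endothelial and epithelial markers, 7 above 0 and 4 below, summed to 1052 FPKM with ATPγS and 1056 FPKM in the control. None of these markers was listed at 0, with Col3a1, of a fibroblast collagen, the most abundant after Dcn (241 FPKM with ATPγS and 227 FPKM in the control), and their part in the C3 level was not tested.

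Of the anaphylatoxin receptor genes, C5ar1 and C5ar2 had counting intervals that include 1, and that of C3ar1 lay above 1. C5ar1 (chromosome 7, 16246743 to 16259540), of the main C5a receptor of neutrophils, stood at 311 FPKM with ATPγS and 296 FPKM in the control, a ratio of 1.05 (0.99 to 1.12), and ranked 273rd with ATPγS and 291st in the control among all genes. C5ar2, of a second C5a receptor that does not couple to G proteins, lies 2588 bases from it and stood at 6.23 FPKM with ATPγS and 5.29 FPKM in the control (ratio 1.18, 0.77 to 1.80). C5ar1 thus exceeded C5ar2 49.9-fold with ATPγS and 55.9-fold in the control. C3ar1 (chromosome 6, 122847138 to 122856161), of the C3a receptor, stood at 27.8 FPKM with ATPγS and 20.6 FPKM in the control, a ratio of 1.35 (1.13 to 1.62). Most of its transcript is untranslated, and with its coding length alone the interval widened to 0.99 to 1.88.

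Cd55 (chromosome 1, 130439027 to 130462744) was the one of the 10 genes that was lower with ATPγS, at 15.1 FPKM with ATPγS and 33.8 FPKM in the control, a ratio of 0.45 (0.35 to 0.57, about 109 fragments with ATPγS and 183 in the control). Its log2 ratio of -1.11 came to -0.99 when the ATPγS library was scaled to a median log2 ratio of 0 and to -0.95 with a pseudocount of 5, both short of 2-fold. Its neighbour and close copy Cd55b was low, at 2.44 FPKM with ATPγS and 0.652 FPKM in the control, with about 9 fragments with ATPγS and 2 in the control, and fragments of the shared sequence could be assigned to either gene. An antisense gene, Gm16083, overlaps 169 bases at the start of Cd55, and the library preparation does not mark strand. Lymphocytes also carry CD55, and T and NK cell markers were lower with ATPγS, 7 of 8 below 0 and 6 of them at least 2-fold, with sums of 90.8 FPKM with ATPγS and 260 FPKM in the control. The most abundant of them by mean FPKM over both libraries were Cd3g, of the T cell receptor complex (19.4 FPKM with ATPγS and 76.5 FPKM in the control), and Lck, a T cell kinase (20.4 FPKM with ATPγS and 64.9 FPKM in the control). The 6 B cell markers, with 4 of the 5 at the minimum level below 0, summed to 253 FPKM with ATPγS and 331 FPKM in the control, mostly Cd79a and its partner Cd79b (84.2 FPKM with ATPγS and 83.1 FPKM in the control). The 6 eosinophil markers, with 2 of the 5 at the minimum level above 0 and 3 below, summed to 73.1 FPKM with ATPγS and 85.2 FPKM in the control. By mean FPKM they were led by Ccr3 (30.4 FPKM with ATPγS and 41.5 FPKM in the control) and Siglecf (13.6 FPKM with ATPγS and 19.3 FPKM in the control). Ear1 was at least 2-fold higher (14.1 FPKM with ATPγS and 5.08 FPKM in the control). Il5ra was at least 2-fold lower (6.41 FPKM with ATPγS and 14.0 FPKM in the control). No T, NK, B cell or eosinophil marker was listed at 0, and the lymphocytes' part in the Cd55 difference was not tested.

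The other complement genes were taken from a list of 46, of which 45 were in the tables and 39 averaged 1 FPKM or more. The 2-fold count held 4 that were higher with ATPγS and 3 that were lower, with 32 between and a median log2 ratio of -0.06, shares close to or below those of all genes. The 4 were all low genes. Cfd, of factor D, the protease that activates factor B, was listed at 7.24 FPKM with ATPγS and at 0 in the control. Masp2, of the protease that starts the lectin pathway, stood at 4.09 FPKM with ATPγS and 0.381 FPKM in the control, Fcna, of the lectin ficolin A, at 7.37 FPKM with ATPγS and 1.64 FPKM in the control, and Cd55b was the last.

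The 3 lower genes were C1s1, Cr2 and Vtn. C1s1, of the C1s protease that C1q activates through C1r, stood at 23.0 FPKM with ATPγS and 51.7 FPKM in the control, a ratio of 0.44 (0.37 to 0.53). C1ra, of its partner C1r, was on the other side, at 26.1 FPKM with ATPγS and 16.8 FPKM in the control (ratio 1.56, 1.23 to 1.98). Cr2, of a receptor for C3 fragments on B cells and follicular dendritic cells, stood at 2.17 FPKM with ATPγS and 6.76 FPKM in the control. Vtn, of vitronectin, which binds the terminal complex, stood at 1.24 FPKM with ATPγS and 4.49 FPKM in the control. C1ra and C1rb, C1s1 and C1s2, C4a and C4b, and Cd59a and Cd59b are close copies between which fragments could be split.

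**Figure D4:**
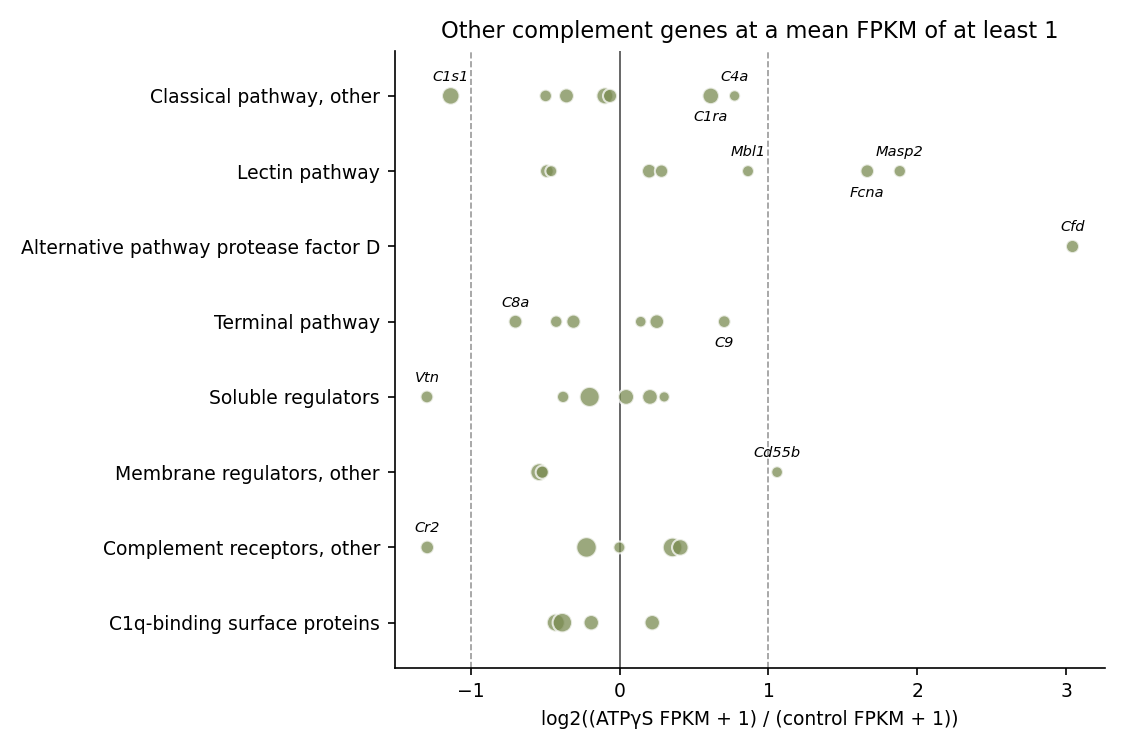
The log2 ratio of ATPγS over control of the 39 other complement genes averaging 1 FPKM or more, in rows by role, with larger points for higher mean FPKM, dashed lines at a 2-fold difference and names for genes farther than 0.6 from 0. Cfd, listed at 0 in the control, lies farthest right at 3.04, and each row but that of factor D holds genes on both sides of 0.

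Among the receptors for C3 fragments, Itgam and Itgax, of the α chains of CR3 and CR4, were higher with ATPγS (ratios 1.28 and 1.34), and Itgb2, of the β chain they share, stood at 212 FPKM with ATPγS and 247 FPKM in the control (ratio 0.86). Vsig4, of a macrophage receptor for C3 fragments, stood at 1.78 FPKM in both libraries. The regulators nearest in role to CD55 were Cr1l, of Crry, a rodent inhibitor of the convertases, at 36.5 FPKM with ATPγS and 53.5 FPKM in the control (ratio 0.68, 0.55 to 0.84), and Cd59a, of an inhibitor of the terminal complex, at 2.83 FPKM with ATPγS and 4.48 FPKM in the control. Cd46, mostly of the testis in mice, had 1.08 FPKM with ATPγS and was listed at 0 in the control, below the minimum mean. Among soluble regulators Serping1, of the inhibitor of C1r and C1s, was the most abundant, at 164 FPKM with ATPγS and 189 FPKM in the control, and Clu, of clusterin, and C4bp, of the C4b-binding protein, had log2 ratios of 0.20 and 0.30.

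In the rest of the classical pathway, C4b and C2, of components cleaved by C1s, were within 0.10 of 0, C1s2 (-0.36) and C1rb (-0.50) were below 0, and C4a (0.77) was above at low levels. In the lectin pathway Mbl1 (0.86), Masp1 (0.28) and Fcnb (0.20) were above 0, and Mbl2 (-0.46) and Colec10 (-0.49) below. Of the terminal components, mostly liver products, C9 (0.70), C7 (0.25) and Hc, which encodes C5 (0.14), were above 0 and C8a (-0.70), C8b (-0.43) and C6 (-0.31) below, with a summed level of 24.7 FPKM with ATPγS and 27.4 FPKM in the control for all 7. Of 4 genes for proteins reported to bind C1q at the cell surface, Lrp1 (0.22) was above 0 and Cd93 (-0.19), Calr (-0.38) and C1qbp (-0.43) below. These figures are log2 ratios, and several rest on few fragments.

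The genes nearest to the mean C1q profile over the 2 libraries, by Euclidean distance on the log2(FPKM + 1) scale among genes averaging 5 FPKM or more, were H13, Pira6, Msra, Fkbp2 and Ndufb2, at distances of 0.03 to 0.07. For Cfp they were Dynlrb1, Nab1, Rcan1, Zfp263 and B9d2, at 0.03 to 0.09. With 2 libraries many genes share any such profile, 32 lying within 0.25 of that of C1q and 30 within 0.25 of that of Cfp.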

How the data were processed

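The members and gene lists were chosen with earlier results of these data known. SMART-Seq HT cDNA and Nextera libraries were used, per the labels' protocols. The submitters' processing notes name TopHat2 2.0.13, Bowtie2 2.2.3, Cufflinks 2.2.1, SAMtools 0.1.19 and the build mm10; the annotation and options are not given. The deposited values are FPKM, 1 per gene symbol, so no count test was run.

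Ratios were log2((ATPγS FPKM + 1) / (control FPKM + 1)), counted from a mean of 1 FPKM and a 2-fold difference; printed ratios have no pseudocount. Depth came from the whole-fragment steps of 922 olfactory receptor genes (FPKM multiplied by coding length). There 75.6% of low values with ATPγS and 76.2% in the control were whole within 0.05. The depth was searched for a high share, and the 10% that chance gives holds only for a depth fixed in advance. With 200 bases subtracted from each length the depths were 3601000 with ATPγS and 2707000 in the control. The shares were then slightly higher (78.0% with ATPγS and 78.9% in the control), so the shares do not favour the depths used. Fragments per gene used GENCODE M21 transcript lengths (GRCm38, which is mm10; 95.7% of symbols found) and are approximate. Intervals are exact binomial (Clopper-Pearson) for ratios and exact Poisson for levels. An exact 0 can be a failed estimate. Named were the 10 members, other complement genes averaging 1 FPKM or more, the 5 nearest profiles and the 2 markers of each list highest by mean. Adgre1, Folr2 and Cd46 were added after their values were seen, and some genes of these lists are not reported here by name. Python 3.11.15, pandas 2.3.3 and scipy 1.17.1 were used, and the steps were tested on simulated data.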

Additional observations from a re-analysis of the deposited data

How the results depend on the processing

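No paired analysis was possible because each group has 1 library. The log2 ratios of the 10 members were recomputed with pseudocounts of 0.1 and 5, and after 2 scalings. These were the same sum of FPKM and a median scaling (median ratio set to 0 among genes averaging 10 FPKM). Of these 40 values, 38 stayed within counting error of the reported one. All 10 members kept their sign, but this was fixed in advance. A pseudocount cannot change a sign. Both scalings only raised the ATPγS values, by 0.05 and 0.13 on the log2 scale, too little to turn Cd55 (-1.11). The median scaling shifted the median gene by 0.13, and C3 (0.32) and C5ar1 (0.20) moved by more than counting error. The number of members at least 2-fold higher was 2 with the same sum or the median scaling, 3 at a threshold of 1.5-fold and 0 at 3-fold. The number at least 2-fold lower was 0 with a pseudocount of 5, with the median scaling and at 3-fold. Over all genes, the numbers higher and lower were 2521 and 1815 as reported, 561 and 461 with a pseudocount of 5, 740 and 894 from a mean of 5 FPKM, 4408 and 3782 at 1.5-fold, 1154 and 611 at 3-fold, and 240 and 429 between means of 10 and 100 FPKM. The last, and both alternatives for fragments, were chosen after seeing the data. From coding lengths, 5 in place of 6 members had an interval without 1, and 6 with 200 bases subtracted. A filter on a mean of at least 5 removed no member. Depth limits C5ar2, C1qa and C1qc most, with 39, 45 and 32 fragments in the control.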

Other observations

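Beyond the lists, and chosen after their values were seen, some genes of pattern recognition proteins were well detected. Colec12, of a scavenger receptor with a collagen-like stalk, stood at 68.9 FPKM with ATPγS and 60.6 FPKM in the control. Ptx3, of the long pentraxin that binds C1q, stood at 40.3 FPKM with ATPγS and 42.8 FPKM in the control. Of 8 genes of the C1q/TNF-related family, which share the C1q globular fold, 7 averaged 1 FPKM or more, with 3 above 0 and 4 below on the log2 scale and a median of -0.01. The 2-fold count held 2 that were higher with ATPγS and 0 that were lower, beside 13.8% of all genes higher and 9.91% lower. The 2 were C1qtnf3, at 13.9 FPKM with ATPγS and 4.35 FPKM in the control (ratio 3.20, counting interval 1.96 to 5.26, about 92 fragments with ATPγS and 22 in the control), and C1qtnf7, at 2.68 FPKM with ATPγS and listed at 0 in the control. Of 4 genes of the C1q-like family only C1ql3 averaged 1 FPKM or more, and it was at least 2-fold lower with ATPγS, at 0.459 FPKM with ATPγS and 2.21 FPKM in the control (log2 ratio -1.14, counting interval of the ratio 0.03 to 0.70, about 3 fragments with ATPγS and 12 in the control). C1rl, of a protease like C1r, stood at 5.13 FPKM with ATPγS and 1.55 FPKM in the control.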
